A study of Mus musculus with 24 samples.

Results

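Cyclic nucleotide phosphodiesterases are the enzymes that break down cAMP and cGMP, the second messengers that adenylyl and guanylyl cyclases make inside the cell. Each enzyme family differs in which messenger it cleaves and in what switches it on, so the set of phosphodiesterases that a neuron expresses shapes how long a hormone or transmitter signal lasts. In brain, *Pde9a* encodes a cGMP-specific enzyme, the *Pde1* genes encode enzymes that calcium and calmodulin activate, *Pde2a* one that cGMP stimulates, *Pde10a* one best known from striatal neurons, and the *Pde4*, *Pde7* and *Pde8* families enzymes specific for cAMP.

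The 10 genes described here, *Pde9a*, *Pde1a*, *Pde1b*, *Pde2a*, *Pde4a*, *Pde4b*, *Pde4d*, *Pde7b*, *Pde8b* and *Pde10a*, were a listed set, and all 10 were present among the 13998 genes of the deposited table. *Pde9a* heads the list because its tag counts differed between the 2 genotypes in these same mice, so its genotype difference is given as a description, without a test. How the other 9 were picked is not given beyond their family. The libraries came from SAGE-Seq, in which a short 3′ tag is sequenced from each transcript, of the hypothalamus of 24 adult male F2 mice from the subcongenic strain B6.CAST-17.1. Of these, 12 were *cast/cast* and 12 *b6/b6* across a segment of proximal Chr 17 that derives from CAST/EiJ, and all were *b6/b6* (C57BL/6J) elsewhere in the genome. The mice were non-recombinant across the segment and were chosen by the study from the extremes of a 10 d choice between a carbohydrate/protein (C/P) and a fat/protein (F/P) diet, the *cast/cast* mice with the highest and the *b6/b6* mice with the lowest C/P intake. In both groups tissue was collected after a wash-out on chow, a renewed period on both diets and a short fast. Because of how the mice were chosen, genotype and past C/P intake moved together, 77.8 to 106.6 kcal in *cast/cast* and 27.4 to 41.0 kcal in *b6/b6* mice. In these mice they cannot be told apart. The contrast is also that of the whole segment and not of *Pde9a* alone. For *Pde9a*, the paper states that the difference had been found before in chow-fed mice of the subcongenic strain, which were not analysed here.

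Only *Pde9a* and *Pde10a* of the 10 genes lie on Chr 17 (GRCm38). *Pde9a* is at chr17:31386233-31476309 and *Pde10a* at chr17:8801744-8986648, both on the plus strand and within the CAST segment, so the *cast/cast* mice carried CAST alleles of these genes and B6 alleles of the other 8. The tag expected from each gene is the stretch that follows its last CATG, which is assumed here to be the site of the anchoring enzyme. It is shown because the counts below would rest on it. The counts are sums by gene and do not show which tags were read. Tags were read from the reference transcripts (GENCODE M21, GRCm38) that match the RefSeq entries of the table, with the CATG in capitals.

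*Pde9a*: CATGtaaattccacattaaatgtcaga
*Pde10a*: CATGaaatatatttagaaatgttcata
*Pde1b*: CATGctcttggtctcccaggcccctgc
*Pde4d*: CATGgtcacacctcactgtcatctgcc
*Pde4a*, tag in the 3′ UTR: CATGctgtcggtttgtgggaagttgtg
*Pde4a*, tag in coding sequence: CATGagggcttgttctgcctgctcggg

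The *Pde9a* tag maps to chr17:31476270-31476296 and the *Pde10a* tag to chr17:8986566-8986592, each in the 3′ UTR and each found in no other gene of the annotation. Both RefSeq transcripts of *Pde9a* in the table correspond to 1 annotated transcript with 15 CATG sites, of which this is the last. The reference is the C57BL/6J sequence, and the CAST sequence at these tags was not analysed here. The *Pde1b* tag is at chr15:103529992-103530018 and the *Pde4d* tag at chr13:109951445-109951471, both in a 3′ UTR. *Pde4a* has 2 expected tags, from 2 transcripts, of which one falls in coding sequence at chr9:21211248-21211274 and the other at chr9:21212958-21212984. *Pde1a* and *Pde4b* have 3 different tags each and *Pde2a* has 2, each also present in 1 other gene of the annotation, so the *Pde2a* count may hold tags of another gene. The table gives 1 value per gene, in which the tags of its transcripts are summed.

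Depth was 7754202 to 13082873 tag hits per mouse, and the lowest count of any of the 10 genes in any mouse was 7 hits, for *Pde7b*, against a detection floor of 3. Neuropeptide and regulator genes that mark the hypothalamus were present in every mouse, with 13 of 15 listed genes measured and a summed normalized count of 6390 to 33319. Some libraries stood apart from the rest. The leading principal component of the genes outside the segment, with the phosphodiesterases left out, took 34.9% of the variance within genotypes, and the score of a mouse on it is given below in SD units. *Cast/cast* mice 4, 5, 6 and 8 scored 1.30 to 1.98 while the other 8 scored from -0.76 to -0.11, and *b6/b6* mice 6 and 12 had the lowest scores of all, -1.58 and -1.74, with *b6/b6* mouse 1 at 1.34. The same mice had the extreme sums of normalized counts. The sum was 10988402 to 11731740 in *cast/cast* mice 4, 5, 6 and 8 and *b6/b6* mouse 1. It was 8433415 and 8287368 in *b6/b6* mice 12 and 6, and 9188942 to 10632363 in all others. The part of library scaling in the score was not tested. Values without the mice of extreme score are given beside several results.

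*Pde9a*, which removes cGMP, had fewer tags in the *cast/cast* mice. Its normalized count (tag hits divided by the size factor of the library) ranged from 191 to 544 in *b6/b6* mice, with a median of 276.4, and from 63.0 to 385 in *cast/cast* mice, with a median of 109. The counts of 8 *cast/cast* mice lay below that of every *b6/b6* mouse, and those of the remaining 4 lay inside the *b6/b6* range. These 4 were the mice with high scores, at 235, 359, 385 and 229 in *cast/cast* mice 4, 5, 6 and 8. Means were 288 ± 94.7 in *b6/b6* against 164 ± 111 in *cast/cast* (SD, n = 12 each), a ratio of 0.570, and the log2 fold change, *cast/cast* over *b6/b6*, was -1.01 (SE 0.26) on the scale of log2(normalized count + 1). At the thresholds of the study, *P* up to 0.01 without adjustment together with a ratio of means of 1.5 or more, 208 of 13998 genes (1.49%) passed, 1.01% lower and 0.471% higher in *cast/cast*. With adjusted *P* up to 0.05 alone, 0.572% passed. *Pde9a* was the only one of the 10 genes that passed, and as this contrast placed it in the set, nothing is read from that count.

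The size of the *Pde9a* difference depended on the 4 mice. Without *cast/cast* mice 4, 5, 6 and 8, the other 8 ranged from 63.0 to 126 with a mean of 95.4 ± 20.3 (SD, n = 8). No *cast/cast* mouse then overlapped a *b6/b6* mouse, and the log2 fold change was -1.56 (SE 0.18, ratio 0.331). The 4 mice held the highest *Pde9a* counts in *cast/cast*, so the lack of overlap and the larger difference follow from leaving them out. They were left out after their values had been seen, and 5.85% of all genes passed the thresholds without them. With all mice and the score in the model, the log2 fold change of *Pde9a* was -1.16, and 1.68% of all genes passed in that model. The labels also give each mouse a study number, which is partly tied to genotype. Among mice with numbers up to 121, *Pde9a* averaged 236 ± 37.2 (SD, n = 5) in *b6/b6* against 152 ± 117 (SD, n = 7) in *cast/cast*, a log2 fold change of -0.90 (SE 0.39). There *cast/cast* mice ran from 63.0 to 385 against 191 to 285 in *b6/b6*, and *Pde9a* did not pass the thresholds. Among those from 197 on, the means were 325 ± 108 (SD, n = 7) and 181 ± 114 (SD, n = 5), a log2 fold change of -0.99 (SE 0.33). The mean was lower in *cast/cast* in both spans. As they hold the same mice that placed *Pde9a* in the set, the spans are no repeat of the contrast.

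**Figure D1:**
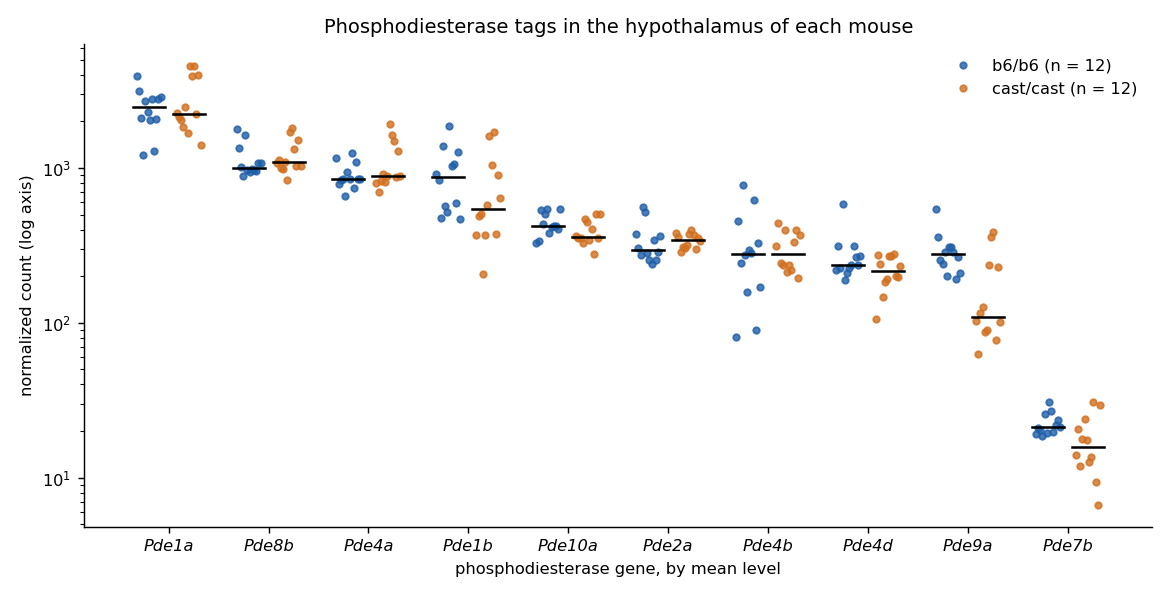
Normalized counts of the 10 phosphodiesterase genes in each of the 24 mice, on a log axis, ordered by mean level. Points are mice (12 *b6/b6*, 12 *cast/cast*) and black bars are medians. *Pde9a* is the gene in which 8 *cast/cast* mice, 63.0 to 126, lie below all *b6/b6* mice, while 4 lie among them.

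*Pde10a*, the other gene of the set with CAST alleles in *cast/cast* mice and an enzyme that cleaves both cAMP and cGMP, did not pass the thresholds. Normalized counts ranged from 326 to 545 (median 425) in *b6/b6* mice and from 277 to 505 (median 359) in *cast/cast* mice, so that 11 of 12 *cast/cast* mice lay within the *b6/b6* range. The log2 fold change was -0.17 (SE 0.12, 95% confidence interval -0.42 to 0.08, limma *P* = 0.183, adjusted *P* = 0.693), an interval that still allows a decrease of 0.42 on the log2 scale. It varied little, with a coefficient of variation of 17.5% in *b6/b6* against 18.8% in *cast/cast* mice.

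Of the calcium/calmodulin-activated enzymes, *Pde1a* had by far the most tags of the 10 genes. It ranged from 1220 to 3912 (median 2493) in *b6/b6* against 1414 to 4566 (median 2248) in *cast/cast* mice, and the highest 4 *cast/cast* mice exceeded every *b6/b6* mouse. These were again mice 4, 5, 6 and 8. The log2 fold change of 0.14 (SE 0.21, limma *P* = 0.503, adjusted *P* = 0.856) became -0.22 without them.

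*Pde1b* showed a similar split, with a wider spread. Counts ran from 469 to 1862 (median 874) in *b6/b6* against 208 to 1703 (median 542) in *cast/cast* mice, in which mice 4 to 6 and 8 had 1599, 1039, 1703 and 903. The difference in all mice was -0.45 on the log2 scale (SE 0.30, limma *P* = 0.147, adjusted *P* = 0.672). Without these 4 mice the *cast/cast* mean was 441 ± 137 (SD, n = 8) against 916 ± 434 (SD, n = 12) in *b6/b6*. *Pde1b* then fell by 0.98 on the log2 scale (SE 0.26, ratio 0.482, limma *P* = 0.000883, adjusted *P* = 0.0440). In that comparison 5.85% of all genes passed the thresholds, against 1.49% with all mice, and the 4 mice were left out after their values had been seen. High scores were removed from *cast/cast* alone, while *b6/b6* mouse 1, at 1.34, was kept. With all mice and the score in the model, *Pde1b* was at -0.58 (SE 0.25, limma *P* = 0.0298, adjusted *P* = 0.369). It did not pass there, while 1.68% of all genes did.

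*Pde2a*, the cGMP-stimulated enzyme, had nearly the same mean in both genotypes, 339 ± 104 in *b6/b6* against 340.1 ± 36.6 in *cast/cast* (SD, n = 12 each). All 12 *cast/cast* mice, 286 to 397, lay inside the *b6/b6* range of 241 to 561, and the log2 fold change was 0.05 (SE 0.14, 95% confidence interval -0.23 to 0.33, limma *P* = 0.700, adjusted *P* = 0.922).

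The cAMP-specific genes also did not pass the thresholds. *Pde4a* had 659 to 1258 (median 850.2) in *b6/b6* against 699.7 to 1918 (median 885) in *cast/cast* mice, and the 4 *cast/cast* mice above every *b6/b6* mouse were those with high scores, at 1282 to 1918. Its log2 fold change was 0.20 (SE 0.16, limma *P* = 0.219, adjusted *P* = 0.713), and -0.10 without them. *Pde8b* ranged from 894 to 1796 (median 1004) in *b6/b6* against 841 to 1822 (median 1086) in *cast/cast*, a log2 fold change of 0.09 (SE 0.14, limma *P* = 0.548, adjusted *P* = 0.874).

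*Pde4b* was the most variable gene among *b6/b6* mice, in which it spanned 81.4 to 781 (median 278), a 9.59-fold range, against 195 to 439 (median 278) in *cast/cast*. Its medians were alike and its log2 fold change was 0.17 (SE 0.29, limma *P* = 0.563, adjusted *P* = 0.879). *B6/b6* mice 6 and 12, which had the lowest scores, held its highest counts, 619 and 781, and mouse 1 its lowest, 81.4. The value was 0.46 without mice 6 and 12 (limma *P* = 0.0804), 0.32 without mouse 12 and 0.021 without mouse 1. *Pde4d* ranged from 189 to 585 (median 237) in *b6/b6* against 105 to 279 (median 216) in *cast/cast* mice. The count of 585 belonged to *b6/b6* mouse 12 and the next highest, 316, to *b6/b6* mouse 6. The log2 fold change of -0.33 (SE 0.18, limma *P* = 0.0712, adjusted *P* = 0.620) was -0.19 without these 2 mice.

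*Pde7b* had the fewest tags, from 18.5 to 30.7 (median 21.1) in *b6/b6* against 6.67 to 30.9 (median 15.7) in *cast/cast* mice. Although 8 *cast/cast* mice had fewer tags than any *b6/b6* mouse, as for *Pde9a*, 1 had more than all of them and the ratio was 0.776. Its log2 fold change was -0.45 (SE 0.21, limma *P* = 0.0415, adjusted *P* = 0.607). Up to number 121 the means were 20.3 ± 1.31 (SD, n = 5) in *b6/b6* against 21.3 ± 7.14 (SD, n = 7) in *cast/cast* with a log2 fold change of 0.00. From 197 on they were 23.8 ± 4.29 (SD, n = 7) and 11.9 ± 4.23 (SD, n = 5). The later mice gave a log2 fold change of -0.995 (SE 0.28, limma *P* = 0.00262, adjusted *P* = 0.419), past the thresholds of the study. The share of all genes past them was 3.27% in the earlier and 1.1% in the later mice. Along study number as a whole, the *Pde7b* slope in *cast/cast* minus that in *b6/b6* was -0.49 per 100 numbers (SE 0.19, limma *P* = 0.0181, adjusted *P* = 0.337), which missed the threshold of 0.01.

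In all, 0 of the other 9 genes passed the thresholds with limma, edgeR or DESeq2, for which 1.49%, 2.79% and 3.68% of all genes passed. At an unadjusted *P* under 0.05, limma gave 1 of 9 (*Pde7b*), against 8.13% of all genes, and edgeR and DESeq2 gave 0. The median log2 fold change of these 9 was 0.05, and -0.06 with *Pde9a*, against -0.02 for all 13998 genes. None of the 10 had genotypes that did not overlap in all mice, as 0.336% of all genes did. Rescaling the libraries to the same total moved the median of all genes to -0.11 and turned the differences of *Pde2a* and *Pde8b*, both near 0, to -0.039 and -0.0036.

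**Figure D2:**
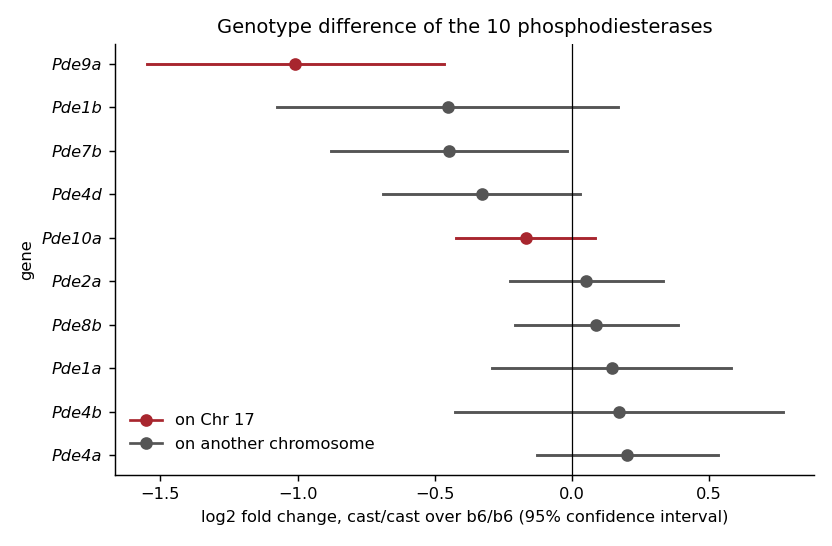
Log2 fold change of each phosphodiesterase gene, *cast/cast* over *b6/b6*, with its 95% confidence interval from limma (12 mice per genotype). The 2 genes on Chr 17 are in red. *Pde9a* is at -1.01 and *Pde10a*, on the same CAST segment, at -0.17 with an interval that spans 0.

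SAGE counts 1 tag per transcript whatever its length, so levels can be set side by side without a length correction, with the reservation that tags can fail to map. By mean normalized count over all mice the order was *Pde1a* (2599), *Pde8b* (1177), *Pde4a* (996), *Pde1b* (824), *Pde10a* (416), *Pde2a* (339), *Pde4b* (307), *Pde4d* (245), *Pde9a* (226) and *Pde7b* (19.9). *Pde1a* was the highest of the 10 genes in 23 of 24 mice, with *Pde1b* above it in *b6/b6* mouse 12, and *Pde7b* was the lowest in 24 of 24. Between them, *Pde8b* exceeded *Pde4a* in 19 of 24 mice, *Pde4a* exceeded *Pde1b* in 18, *Pde1b* exceeded *Pde10a* in 18, and *Pde2a* and *Pde4b* kept their order in only 14. *Pde4d* and *Pde9a* also kept theirs in 14, in 5 of 12 *b6/b6* mice and 9 of 12 *cast/cast* mice.

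As a share of the summed counts of the 10 genes, those for enzymes that cleave both messengers (*Pde1a*, *Pde1b*, *Pde2a*, *Pde10a*) made up 58.2% ± 3.85 in *b6/b6* against 57.8% ± 3.47 in *cast/cast* mice, and the cAMP-specific genes 37.8% ± 3.85 and 40.1% ± 3.87 (SD, n = 12 each). The cGMP-specific share, which is *Pde9a* alone, was 4.01% ± 0.789 (3.04% to 5.82%) in *b6/b6* against 2.11% ± 0.808 (1.06% to 3.58%) in *cast/cast*. The summed count itself was 7076 ± 993 in *b6/b6* against 7221 ± 2337 in *cast/cast* mice.

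The other genes of cyclic nucleotide turnover gave a background for the set. From 6 lists, 56 of 78 genes were measured, none of them in the CAST segment. Limma called 0 of 56 between genotypes, edgeR 1 and DESeq2 2, against 1.49%, 2.79% and 3.68% of all genes. An unadjusted limma *P* under 0.05 was reached by 6 of 56, against 8.13% of all genes. Their median log2 fold change was -0.12, against -0.02 for all genes. Of the 8 other genes listed as phosphodiesterases (*Pde1c*, *Pde3b*, *Pde4c*, *Pde4dip*, *Pde5a*, *Pde6d*, *Pde7a*, *Pde12*), none reached *P* under 0.05, and their log2 fold changes lay between -0.34 and 0.29. Not all of them encode enzymes that cleave cAMP or cGMP, and they include a phosphodiesterase-interacting protein and a delta subunit without catalytic activity.

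On the cGMP side, which *Pde9a* serves, 9 of 19 guanylyl cyclase, natriuretic peptide and nitric oxide genes were measured, with a median log2 fold change of -0.25. *Gucy1a2*, a subunit of the nitric oxide receptor, ranged from 65.1 to 316 in *b6/b6* against 54.9 to 171 in *cast/cast* (log2 fold change -0.49, SE 0.21, limma *P* = 0.0284, adjusted *P* = 0.586). *Npr1*, the receptor cyclase for atrial natriuretic peptide, had 9.79 to 54.4 and 24.9 to 86.6 (log2 fold change 0.56, SE 0.24, limma *P* = 0.0295, adjusted *P* = 0.586). *Prkg1*, a cGMP-dependent kinase from the list of PKA and PKG subunits, had 65.1 to 168 and 44.1 to 127 (log2 fold change -0.41, SE 0.18, limma *P* = 0.0339, adjusted *P* = 0.600). These 3 were named after their values were seen, and in each the genotypes overlapped and the ratio was under the threshold.

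On the cAMP side, 10 genes of the adenylyl cyclase list had a median of -0.16 and none at *P* under 0.05, and 11 subunits and inhibitors of the kinases PKA and PKG had a median of -0.19. The PKA regulatory subunits *Prkar2a* and *Prkar2b* were at -0.71 (SE 0.33, limma *P* = 0.0418, adjusted *P* = 0.607) and -0.41 (SE 0.17, limma *P* = 0.0229, adjusted *P* = 0.572), and the PKA inhibitor *Pkig* at 0.50 (SE 0.24, limma *P* = 0.0460, adjusted *P* = 0.608), again named after their values were seen. The genes that other tools called were *Adcyap1*, a neuropeptide (PACAP) that raises cAMP and is no cyclase itself, with edgeR and DESeq2, and *Prkar2a* with DESeq2. *Adcyap1* had a median of 190 in *b6/b6* against 168 in *cast/cast* but reached 1971 in a *b6/b6* mouse, and its ratio of 0.415 became 0.970 without *b6/b6* mice 6 and 12. That of *Prkar2a* moved from 0.531 to 0.864. The 15 effectors and targets (median -0.11) and the 3 calmodulin genes (median 0.08) held none at *P* under 0.05.

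**Figure D3:**
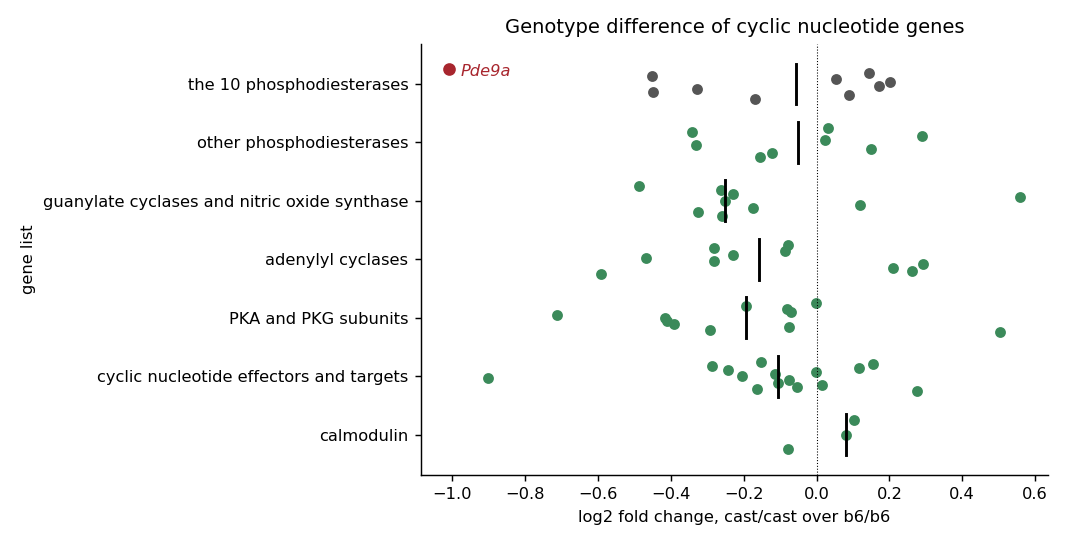
Log2 fold changes, *cast/cast* over *b6/b6*, of the 10 phosphodiesterases and of 56 other genes of cyclic nucleotide turnover in 6 lists (12 mice per genotype). Each point is a gene and black bars are list medians, which lie between -0.25 and 0.08. *Pde9a* is the lowest point, at -1.01.

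Between mice of the same genotype, 5 of the phosphodiesterases were higher where the score was higher. Within genotypes, the change in log2(normalized count + 1) per SD of the score was 0.55 (SE 0.08) for *Pde9a*, 0.47 (SE 0.06) for *Pde1a*, 0.45 (SE 0.13) for *Pde1b*, 0.26 (SE 0.06) for *Pde4a* and 0.25 (SE 0.05) for *Pde8b*. *Pde10a* went the other way, at -0.14 (SE 0.05), as did *Pde4b* at -0.29 (SE 0.14). *Pde2a*, *Pde7b* and *Pde4d* had slopes from -0.04 to 0.01. The score derives from the same libraries, so these slopes are descriptions, and the median slope of all genes was -0.02. Following the score was not particular to these genes. Of the 56 other genes of cyclic nucleotide turnover, which entered the score, 7 rose and 20 fell with it at an unadjusted limma *P* of at most 0.01. The share of all genes is not given here.

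These relations are also given for each genotype, without a test of the difference. In *b6/b6* and *cast/cast* mice, Pearson's r with the score was 0.84 and 0.93 for *Pde1a*, 0.66 and 0.85 for *Pde8b*, and 0.66 and 0.93 for *Pde9a* (n = 12 each). For *Pde4a* it was 0.25 and 0.93 and for *Pde1b* 0.15 and 0.86, so that in these genes the relation lay with the *cast/cast* mice, and over the 20 mice that remain without the 4 high-scoring ones r was 0.23 and 0.10. It was 0.77 for *Pde1a*, 0.62 for *Pde8b* and 0.59 for *Pde9a* in the same 20. *Pde4d* had r of -0.65 in *b6/b6* against 0.40 in *cast/cast* mice.

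**Figure D4:**
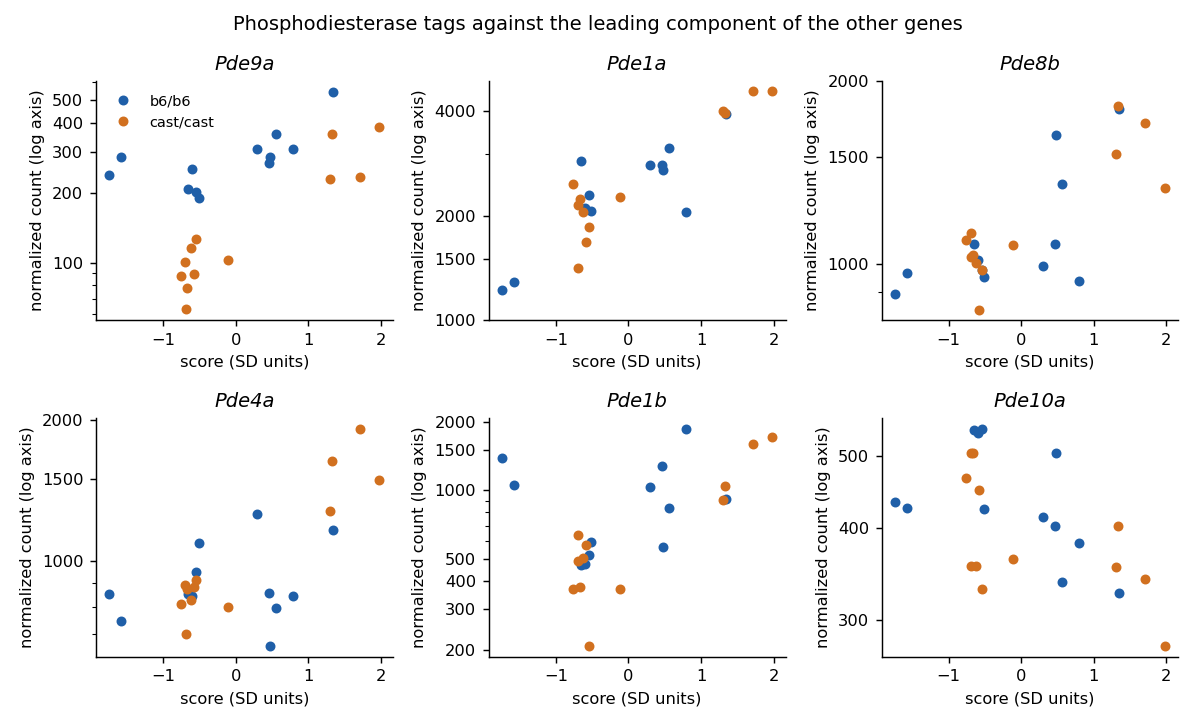
Normalized counts (log axis) of 6 phosphodiesterase genes in each mouse against the score on the leading principal component of the other genes (SD units). Points are mice by genotype. *Pde9a*, *Pde1a* and *Pde8b* are higher at higher scores in both genotypes (r from 0.66 to 0.93), *Pde4a* and *Pde1b* mainly in the 4 *cast/cast* mice at 1.30 to 1.98, and *Pde10a* is lower (r of -0.52 and -0.59).

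Correlations between the genes themselves, were taken with genotype means removed. Of 45 pairs, 9 had r above 0.5 over 24 mice, but 3 did over the 20 mice without the high-scoring 4. The share among pairs of all genes is not given here, so nothing is read from these counts. The closest pair was *Pde1a* with *Pde8b* (r = 0.80, rho = 0.85, and 0.68 in 20 mice). *Pde9a* had r of 0.75 with *Pde4a*, 0.72 with *Pde8b*, 0.70 with *Pde1a* and 0.66 with *Pde1b*, which fell to 0.25, 0.51, 0.31 and 0.19 in the 20 mice, and of which the value for *Pde4a* was 0.17 in *b6/b6* against 0.91 in *cast/cast* mice. The 2 genes of the CAST segment were opposed, with r of -0.58 (rho = -0.61) for *Pde9a* and *Pde10a*, -0.75 in *b6/b6* against -0.55 in *cast/cast*, and -0.60 in the 20 mice. All of these points share their libraries, and no *P* is given.

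Among all genes, those whose counts followed *Pde9a* most closely were *Gpsm1*, *B4galnt1*, *Zfp709*, *Ythdf2* and *Bin1*, with r of 0.92, 0.92, 0.91, 0.91 and 0.91 over 24 mice and 0.74 to 0.80 over 20. For *Pde10a* they were *Elmod1*, *Atg2b*, *Mlxip*, *2410089E03Rik* and *Spag1*, with r of 0.81, 0.80, 0.79, 0.77 and 0.77. None of these 10 genes is on Chr 17. The genes nearest to *Pde9a* had r of 0.79 to 0.88 with the score and those nearest to *Pde10a* from -0.87 to -0.27. All 10 entered the score themselves.

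As cAMP can act back on genes through CREB, the promoters of the set were searched on both strands for the cAMP response element TGACGTCA and for its core TGACG, which the full element contains. RefSeq promoter sequences (GRCm38) were at hand for 28 starts of 9 of the genes and not for *Pde9a*. The full element was in 0 of 28 and the core in 5 of 28, one each in *Pde1a*, *Pde2a*, *Pde4a*, *Pde4b* and *Pde8b*, against 1.79% and 20.8% of 32851 promoters of the genome.

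Dissected tissue can differ in which cells it holds, and in bulk tissue fewer cells of a type and less RNA per cell cannot be told apart. Summed levels of 10 marker lists were therefore set against the 10 genes. *Pde9a*, *Pde1a*, *Pde1b*, *Pde4a* and *Pde8b* were lower where the hypothalamic list was higher, with slopes per doubling of the summed level of -0.82, -0.72, -0.73, -0.43 and -0.41 (limma adjusted *P* from 0.00136 to 0.0312), while 31.9% of all genes passed the same threshold of 0.05. That list holds *Agrp*, *Npy*, *Pomc*, *Cartpt*, *Hcrt*, *Pmch*, *Avp*, *Oxt*, *Trh*, *Ghrh*, *Sim1*, *Nkx2-1* and *Nr5a1*, its sum ran from 11703 to 29453 in *b6/b6* against 6390 to 33319 in *cast/cast* mice, and none of its genes was at 0 in any mouse. A sum weighs each gene by its level. *Pmch* was the largest part of this one, with means of 8479 in *b6/b6* and 7780 in *cast/cast* against median sums of 15128 and 17467.

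The same 5 genes were lower where the sum of the oligodendrocyte genes (*Mbp*, *Mog*, *Mobp*, *Mal*, *Cnp*, *Mag*, sum of 6 genes 10834 to 42906 in *b6/b6* against 11083 to 34676 in *cast/cast*) was higher, at slopes from -0.89 for *Pde9a* to -0.38 for *Pde4a*, against 39.0% of all genes. *Mbp* alone made up most of this sum, with means of 18460 in *b6/b6* and 21764 in *cast/cast* against median sums of 20393 and 26040. With a mean of standardized values in place of the sum, 4 genes passed for the hypothalamic list (*Pde9a*, *Pde1a*, *Pde1b*, *Pde4a*) and 3 for the oligodendrocyte list (*Pde1a*, *Pde8b*, *Pde9a*). With the microglial genes (*Csf1r*, *Cx3cr1*, *P2ry12*, *C1qa*, *C1qb*, *Aif1*, all 6 measured, sum 1731 to 4140 and 2204 to 5657), 5 genes had slopes that passed, positive for *Pde1a*, *Pde4a*, *Pde8b* and *Pde9a* and negative for *Pde4b*, against 41.1% of all genes, but 0 did so with standardized values. *Pde4b* alone rose with the haemoglobin and erythroid genes *Hba-a1*, *Hba-a2* and *Alas2* (slope 0.34, SE 0.11, limma adjusted *P* = 0.0490, against 9.04% of all genes), whose sum ran from 121 to 4999 in *b6/b6* against 105 to 782 in *cast/cast* mice.

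None of the 10 genes had a slope past the threshold on the striatal, thalamic, cortical and hippocampal, astrocyte, choroid plexus or pituitary lists, on which 0%, 0.236%, 0.00714%, 0%, 0.00714% and 0% of all genes passed. With standardized values *Pde1a* and *Pde8b* passed on the cortical and hippocampal list, and *Pde1b* joined *Pde4b* on that of blood. The striatal list, which bears on *Pde10a* and *Pde1b*, had 6 of 9 genes measured and a sum of 4099 to 6541 in *b6/b6* against 3802 to 6758 in *cast/cast* mice. The hypothalamic, oligodendrocyte and microglial sums followed the score too, with r of -0.70, -0.78 and 0.81 over 24 mice. Marker genes outside the segment entered the score, so part of these relations is built in. *Cast/cast* mice 4, 5, 6 and 8, which the score had picked out, had 11083 to 19219.6 on the oligodendrocyte list, mostly *Mbp*. The other 8 had 22139.8 to 34676, without overlap. On the thalamic list, which had r of 0.55 with the score, the values were 474 to 837 against 276.0 to 392. *Tcf7l2* of the thalamic list was the 1 marker gene called between genotypes (log2 fold change -0.84, SE 0.29, limma *P* = 0.00710, adjusted *P* = 0.449), against 1.49% of all genes. Its list did not move as a whole. *Ramp3* was also lower, at -0.67, while *Prkcd*, *Rora*, *Lef1*, *Tnnt1* and *Plekhg1* were at 0.04, 0.05, 0.08, 0.40 and 0.07. The part of these cells in the levels of the phosphodiesterases was not tested.

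Intake over the 10 d choice test, measured before the tissue was taken, was related to the counts within each genotype, which leaves the difference between genotypes aside. For total kcal, *cast/cast* mice that had eaten more had fewer tags of *Pde4a*, with a slope of -0.40 on the log2 scale per 10 kcal (SE 0.11, limma *P* = 0.00160, adjusted *P* = 0.0553), and of *Pde1b*, with one of -0.65 (SE 0.23, limma *P* = 0.00882, adjusted *P* = 0.0934). These were 2 of 10 genes at *P* of at most 0.01, against 10.2% of all genes, and 6 of 10 had an unadjusted *P* under 0.05, against 24.9% of all genes. *Pde9a* had a slope of -0.53 (SE 0.20, limma *P* = 0.0134, adjusted *P* = 0.110) and passed with edgeR (*P* = 0.00766) and DESeq2 (*P* = 0.00516). All 3 slopes depended on the high-scoring mice, of which mice 4 and 5 had the lowest totals, 104.0 and 107.2 kcal. Without mouse 6 alone, *Pde9a* also passed, at -0.51 (limma *P* = 0.00749). Without the 4, the slopes were -0.04 for *Pde4a*, -0.19 for *Pde1b* and 0.09 for *Pde9a*, none with an unadjusted limma *P* under 0.5. In *b6/b6* mice 0 of 10 genes passed, nor did any reach an unadjusted limma *P* under 0.05, and 0.443% of all genes passed. The difference between genotypes passed for *Pde4a* alone, against 5.19% of all genes.

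For C/P intake, *Pde4d* fell with intake among *b6/b6* mice, at -0.81 per 10 kcal (SE 0.29, limma *P* = 0.00947, adjusted *P* = 0.0866), 1 of 10 genes against 11.2% of all genes. The slope depended on *b6/b6* mouse 12. It had the lowest C/P intake, 27.4 kcal, and the highest *Pde4d* count, 585, and without it the slope was -0.30 (SE 0.40, limma *P* = 0.463). The difference between genotypes passed for *Pde4d* alone, against 9.93% of all genes. In *cast/cast* mice 0 of 10 genes passed with limma, 0 had an unadjusted *P* under 0.05, 0.5% of all genes passed, and the slope of *Pde9a* was 0.38 (SE 0.21, limma *P* = 0.0852). For study number, 0 of 10 genes passed with limma over both genotypes and 0 had an unadjusted *P* under 0.05, against 6.27% of all genes at 0.01. Within genotypes 0 of 10 passed as well, against 16.6% of all genes in *b6/b6*, 0.236% in *cast/cast* and 2.89% for the difference, and *P* was under 0.05 for *Pde1a* (0.24, limma *P* = 0.0348) and *Pde4d* (-0.18, limma *P* = 0.0493) in *b6/b6* and for *Pde7b* (-0.40, limma *P* = 0.0229) in *cast/cast*.

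**Figure D5:**
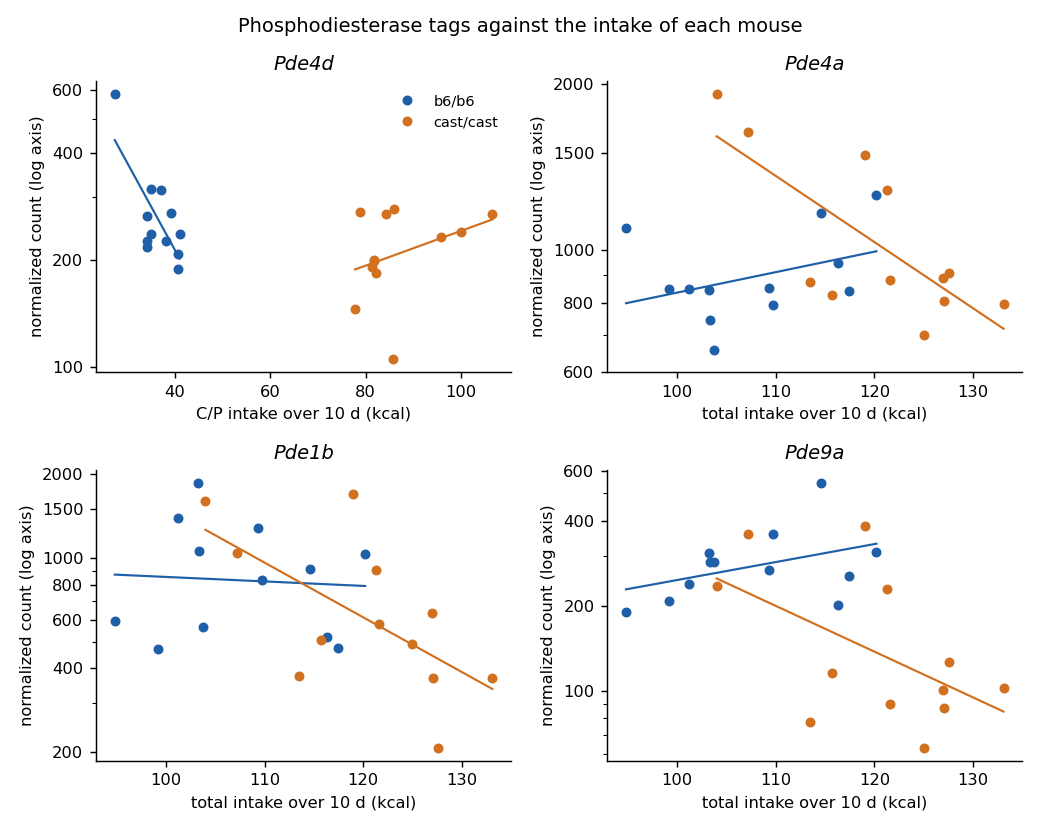
Normalized counts (log axis) of 4 phosphodiesterase genes in each mouse against intake over the 10 d test, C/P kcal for *Pde4d* and total kcal for the others. Lines are the slopes fitted within each genotype. The *Pde4d* line of *b6/b6* mice depends on the mouse at 27.4 kcal with a count of 585, and the *cast/cast* mice with the lowest totals, 104.0 and 107.2 kcal, have high counts.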

How the data were processed

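SAGE-Seq libraries of the hypothalamus of 24 mice, 12 per genotype by the labels, were analysed. The deposited signal values are normalized counts, for which the authors mapped tags to RefSeq mRNA and GRCm38 (mm10), summed them by gene and scaled each library by its DESeq size factor. In every library 100% of values were whole multiples of 1 step (tolerance 0.02), which gave back tag hits. The table's fold changes, means and P-values of the authors' comparison were not used, and 0 value columns were left unmapped. Of 19529 rows, repeats of a gene were used once. Libraries are from separate mice and none was a duplicate. The floor of 3 hits covers counting error only, while confidence intervals are limma's, from the spread between mice.

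Log2(normalized count + 1) of 13998 genes was tested with limma 3.58.1 (eBayes with a trend, two-sided) without covariates, with Benjamini-Hochberg adjustment over all genes. The minimum mean of 5 removed no gene. Slopes were fitted within genotype. Alternatives were other pseudocounts and minimums, rescaled libraries, edgeR 4.0.16 and DESeq2 1.42.0 on tag hits (391 and 515 genes called between genotypes), study number as covariate, and mice left out. The last, the score as covariate and the spans of study number were added after the data were seen. The fits were tested on simulated data. The members, pathway lists and marker lists were chosen with earlier results of these data known, and 1 gene of the oligodendrocyte list was left out and is not reported here. Genes named were the 10 members, pathway genes called between genotypes, the 5 genes most correlated with *Pde9a* and *Pde10a*, and markers of lists with a member past an adjusted P of 0.05. Named beyond this rule were the other phosphodiesterases, the thalamic markers, and pathway genes called by another tool or under an unadjusted P of 0.05. These were named after their values were seen. Computations used R 4.3.3 and Python 3.11.15.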

Additional observations from a re-analysis of the deposited data

Results flagged for a closer look

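In 2 cases the slope of a phosphodiesterase on intake differed between genotypes, by limma's test of the difference of slopes at an unadjusted *P* of at most 0.01. The slope of *Pde4d* on C/P intake per 10 kcal was -0.81 in *b6/b6* against 0.16 in *cast/cast*, a difference of 0.973 (SE 0.31, limma *P* = 0.00482, adjusted *P* = 0.0738), in a test that 9.93% of all genes passed. Without *b6/b6* mouse 12 the difference was 0.46 (limma *P* = 0.281), and over all alternatives its adjusted *P* ranged from 0.0228 to 0.814. The slope of *Pde4a* on total intake per 10 kcal was 0.12 in *b6/b6* against -0.40 in *cast/cast*, a difference of -0.521 (SE 0.17, limma *P* = 0.00428, adjusted *P* = 0.189), where 5.19% of all genes passed. Without *cast/cast* mice 4, 5, 6 and 8 it was -0.16 (limma *P* = 0.399), and its adjusted *P* was 0.0752 or more in every alternative.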

How the results depend on the processing

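Of 389 values recomputed under alternatives, 340 kept their direction and their side of the threshold, or stayed within 1.5 times a count. With all mice 1 of the 10 genes passed the genotype thresholds. The count was 0 with adjusted *P* in place of *P* and among mice up to study number 121, 2 from number 197 on (*Pde7b* was added) and 2 without *cast/cast* mice 4, 5, 6 and 8 (*Pde1b* was added). For the pathway lists it was 0 with all mice and limma, 1 with edgeR, 2 with DESeq2 and 2 without those 4 mice (*Pde6d* and *Ppp1r1b*, named after their values were seen). On C/P intake in *b6/b6*, 1 gene passed, which became 0 with study number as a covariate, with adjusted *P* and without *b6/b6* mice 6 and 12, and 2 with the score as a covariate (*Pde1b* was added). Leaving out 1 *b6/b6* mouse gave 0 to 1. On total intake in *cast/cast*, 2 passed, which became 1 in rescaled libraries, 1 with the score as a covariate (*Pde4d* in place of both), 0 with adjusted *P* and 0 without the 4 *cast/cast* mice, and leaving out 1 mouse gave 1 to 3 (*Pde4a* alone without *b6/b6* mouse 1, with *Pde9a* added without *cast/cast* mouse 6). On study number, 0 became 1 without the 4 mice (*Pde1a*). With standardized marker values the genes that passed were 2 for the cortical and hippocampal list, 3 for oligodendrocytes, 0 for microglia and 2 for blood, against 0, 5, 5 and 1 with sums. Differences near 0 turned sign: *Pde1a* to -0.22 without the 4 *cast/cast* mice, -0.033 without *b6/b6* mice 6 and 12 and -0.051 from number 197 on, *Pde2a* to -0.039 in rescaled libraries and -0.014 without the 4 mice, *Pde4a* to -0.10 and *Pde8b* to -0.12 without them, *Pde8b* to -0.0036 in rescaled libraries, *Pde4b* to -0.068 with edgeR and -0.072 with DESeq2, and *Pde7b* to 0.00091 up to number 121. The slope of *Pde9a* on total intake in *cast/cast* turned to 0.086 without the 4 mice. The cause of these changes was not tested. No paired analysis was possible because the genotypes are separate mice and the labels give nothing that pairs them. Genes under a mean of 6.03 were not analysed here.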
